A study of Homo sapiens with 12 samples.

Results

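The 3 TRF+DDP libraries were set against the 3 untreated CON libraries of A549/DDP cells, 6 of the 12 RNA-seq libraries of the series, to describe where the transcriptome stood after the combined treatment. A549/DDP cells descend from A549, a line of human lung adenocarcinoma, and tolerate cisplatin (DDP), a platinum compound that forms crosslinks in DNA. CON cells had normal RPMI-1640 medium with serum and glucose. TRF is a culture model of time-restricted feeding, in which every daily cycle held a shorter spell in normal medium and a longer spell in medium without serum and glucose, and TRF+DDP cells had this cycle together with cisplatin. DDP and TRF cells had only the drug or only the cycle. All groups were the same resistant line, which is maintained in cisplatin, and whether the drug was withdrawn beforehand is not stated, so earlier exposure of the CON cells is unknown. The study gives a dose and a duration of the combined treatment beside its PCR assays of these cells, and whether they also hold for the sequenced cells is not stated in the sources used here. The study calls the libraries of a group biological replicates, but neither it nor the labels say whether they came from separate cultures, so the p-values below measure the spread between these libraries, which may be technical.

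Cisplatin adducts activate p53, which drives genes of growth arrest, repair and cell death, among them CDKN1A (p21) and MDM2. Loss of glucose and growth factors engages other programs. The ATF4 response raises amino acid synthesis, and FOXO factors act when insulin signalling is low. Damaged or unfolded protein activates HSF1, which drives the heat shock genes. A549 cells carry a KEAP1 mutation that keeps the NRF2 antioxidant program high, and they are known for strong expression of aldo-keto reductases and pentose phosphate enzymes.

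The values were the authors' TPM, a measure of transcript abundance which divides reads by transcript length and by the total of the library, so that levels can be compared between genes while the reads that gave a value cannot be counted. Every library sums to the same total, so TPM shows shares, and fewer cells of a kind and less RNA per cell cannot be told apart. From 13726 to 13854 genes reached 1 TPM in the CON libraries and 13384 to 13500 in the TRF+DDP libraries. Across genes, Pearson's r of log2 values ran from 0.979 to 0.983 within the groups and from 0.915 to 0.922 between them. The mitochondrial genome supplied 10.7% ± 0.287 of the TPM of CON libraries (SD, n = 3, as for every mean below) and 8.46% ± 0.150 of that of TRF+DDP libraries. Of 14 lung epithelial carcinoma markers 6 were expressed enough to test, with KRT8, KRT18 and KRT7 at 442 to 1103 TPM in both group means. By the limits given below KRT8, KRT18 and AKR1B10 were higher in TRF+DDP, KRT7 was not called, and MUC1, a membrane mucin (32.4 ± 3.76 to 4.69 ± 0.635 TPM), and ALDH1A1 were lower. The markers EPCAM, CDH1, KRT19, NKX2-1, NAPSA and SFTPB stayed under 1 TPM in every library of both groups. Of 18 leukocyte markers, CD68 and ITGAM alone were tested, and PTPRC, CD3D, CD3E, CD2 and MS4A1 were listed at 0 to 0.01 TPM, while the summed level of the list ran from 9.82 to 10.8 TPM in CON and from 50.5 to 56.4 TPM in TRF+DDP, most of it the lysosomal glycoprotein CD68. The 12 fibroblast markers summed to 1037 to 1040 TPM in CON and 326 to 340.3 TPM in TRF+DDP, most of it S100A4 while FAP and LUM were listed at 0, and the 10 endothelial markers to under 3 TPM in every library of both groups.

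The 13854 genes that averaged 1 TPM or more in the 12 libraries were tested on the log2(TPM + 1) scale with limma, which understates the change of genes at low levels. A gene is called higher or lower here, or said to have risen or fallen, where its fold was over 1.5 and its p, adjusted over all genes by Benjamini and Hochberg, under 0.05. In TRF+DDP against CON 4866 genes passed both limits, of which 2158 rose (15.6% of those tested) and 2708 fell (19.5%). Every count of gene list members called in this comparison stands beside both shares. The groups of libraries did not overlap for 10055 genes (72.6%), so separation of 3 from 3 libraries was the usual case. Of the called genes, 893 rose and 1208 fell by at least 1 on the log2 scale, 141 rose and 166 fell by at least 2, and 30 rose and 19 fell by at least 3. The median log2 fold change over all genes tested was -0.03. Falls were commoner among genes at low levels: of the 3547 genes with a mean over CON and TRF+DDP of 3 to 10 TPM, 22.9% fell and 14.0% rose, and of the 1321 genes at 100 TPM or more, 13.6% fell and 17.1% rose.

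**Figure D1:**
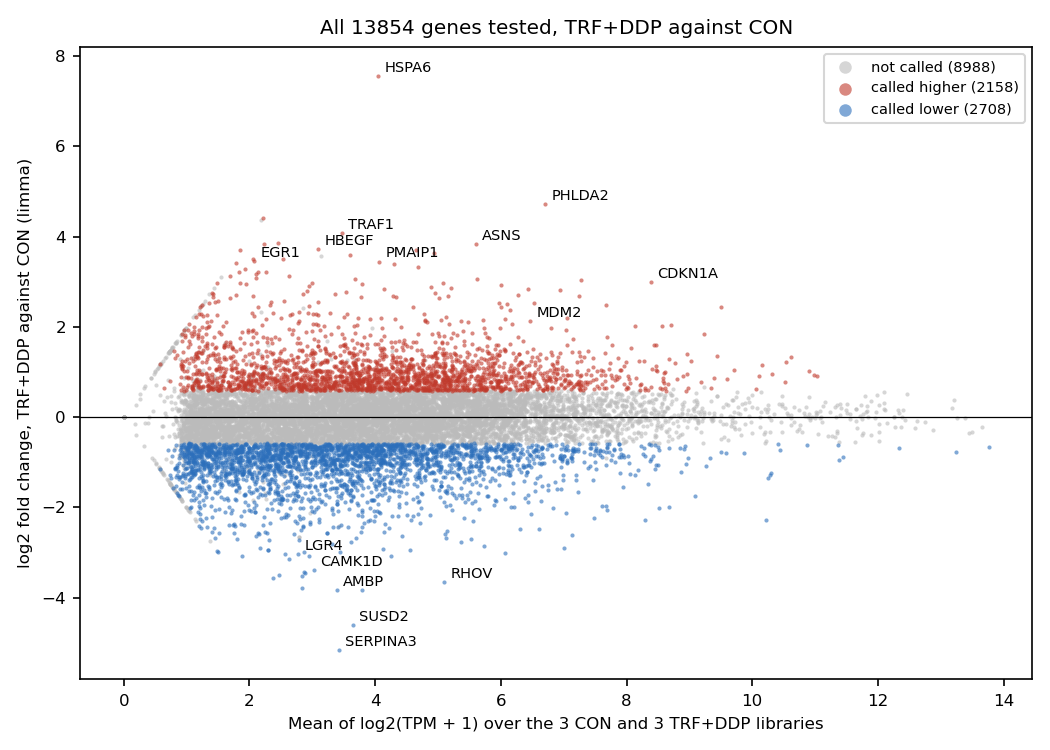
Each point is 1 of the 13854 genes tested, with the mean log2(TPM + 1) of the 6 libraries on the x axis and the limma log2 fold change of TRF+DDP against CON on the y axis. The 2158 called higher (red) and the 2708 called lower (blue) extend over the whole range of levels, and HSPA6 at 7.57 and SERPINA3 at -5.17 mark the ends.

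Most targets of p53 were higher in TRF+DDP. Of its 45 tested direct targets 32 rose and 2 fell, against 15.6% and 19.5% of all genes. Their median log2 fold change was 1.39 against -0.03. For 43 of the 45 the groups did not overlap, beside 72.6% of all genes tested. CDKN1A (ENSG00000124762), the cyclin-dependent kinase inhibitor p21, stood at 116, 114 and 122 TPM in the CON libraries and 960.2, 929 and 949 TPM in the TRF+DDP libraries. All TRF+DDP libraries lay far above all CON libraries, 8.05 times in the means, with a log2 fold change 3.0 (SE 0.039, adjusted p = 2.42e-13). PMAIP1, which encodes the BH3-only death protein NOXA, stood at 3.5, 4.4 and 4.33 TPM in the CON libraries and 52.3, 58.5 and 51.8 TPM in the TRF+DDP libraries. It was the largest rise of the list, again without overlap (log2 fold change 3.45 (SE 0.14, adjusted p = 5.24e-10)). GADD45A, a growth arrest and repair gene, rose from 37.4 ± 1.81 to 219 ± 7.94 TPM, and PLK2, a p53-induced kinase of the centrosome cycle, from 30.2 ± 3.77 to 159.8 ± 6.76 TPM.

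MDM2, the ubiquitin ligase that returns p53 to low levels, read 37.2, 41.5 and 45.5 TPM in CON and 184, 184 and 184 TPM in TRF+DDP. The TRF+DDP libraries were nearly identical and the log2 fold change 2.13 (SE 0.12, adjusted p = 2.84e-08) set them well apart from CON. PTP4A1, a phosphatase at 126 to 78.8 TPM, was among the members that fell. Against TRF alone, where 10.2% of all genes were called higher and 6.1% lower, 38 of the 45 targets were higher and 0 lower, and against DDP alone, where the shares were 11.8% and 21.4%, 25 were higher and 4 lower. CDKN1A was at 275 ± 6.46 TPM in DDP and 125 ± 4.43 in TRF, and TRF+DDP exceeded both (log2 fold change 2.91 against TRF and 1.78 against DDP, adjusted p = 3.85e-13 and 7.82e-12). MDM2 was at 91.4 ± 5.95 TPM in DDP and 28.6 ± 6.6 in TRF, with log2 fold changes of 2.67 against TRF and 1.01 against DDP.

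Pro-apoptotic and anti-apoptotic genes both rose more often than they fell, beside 15.6% of all genes higher and 19.5% lower. Among 30 pro-apoptotic genes 12 rose and 5 fell, with a median of 0.33, and among 16 anti-apoptotic genes 6 rose and 2 fell, with a median of 0.37. FAS, a death receptor, rose from 19.9 ± 1.59 to 73.2 ± 3.36 TPM, TNFRSF10A, a receptor for TRAIL, from 13.2 ± 1.56 to 43.8 ± 0.809 TPM, and BAK1, a pore-forming BCL2-family protein, from 22.8 ± 1.1 to 75.1 ± 2.28 TPM. The falls included BMF (6.15 to 1.63 TPM) and BCL2L11 (BIM, 16.9 to 6.78 TPM), BH3-only genes, and CASP9, the initiator caspase of the mitochondrial route (14.2 to 5.33 TPM). On the survival side TRAF1 and BIRC3, a ubiquitin ligase of the IAP family, rose with TNFRSF10D, a decoy receptor for TRAIL (9.48 ± 0.502 to 55.6 ± 3.25 TPM), and BCL2L1, which encodes BCL-XL (56.9 ± 0.263 to 135 ± 2.59 TPM). BIRC5 (survivin), which also serves mitosis, fell from 73.3 ± 1.38 to 34.1 ± 0.703 TPM. The other anti-apoptotic fall, BIRC6 (log2 fold change -0.59), lost its call under quantile normalization (-0.56) and TMM-style scaling (-0.55).

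Most heat shock genes were higher, and they held the steepest rise of all genes tested. Of 29 tested members 21 rose and 0 fell (median 0.98), and the list took 0.782% ± 0.00522 of all TPM in CON and 1.68% ± 0.069 in TRF+DDP. HSPA6 (ENSG00000173110), a strictly inducible HSP70, stood at 0.29, 0 and 0.35 TPM in the CON libraries and 221, 265 and 199 TPM in the TRF+DDP libraries. The gene was at or near 0 in every CON library and between 199 and 265 TPM in every TRF+DDP library (log2 fold change 7.57 (SE 0.26, adjusted p = 1.57e-09)), although reads of HSPA6 can be shared with its close copy HSPA7. HSPA1A, another inducible HSP70, read 304, 301 and 333 TPM in CON and 1706, 1849 and 1525 TPM in TRF+DDP, a log2 fold change 2.43 (SE 0.07, adjusted p = 3.91e-11). HSPA1A and HSPA1B are near-identical copies, so the split of reads between them is uncertain, and HSPA1B went from 188 ± 4.88 to 765 ± 72.8 TPM. ZFAND2A, a proteasome-associated zinc finger protein, rose from 15.9 ± 0.638 to 141 ± 12.4 TPM. HSPA8, the constitutive HSP70, had the largest gain in TPM of any called gene with a symbol, at 982, 989 and 978 TPM in the CON libraries and 2509.9, 2534 and 2410.4 TPM in the TRF+DDP libraries, 2.53 times the CON mean.

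Heat shock factors bind inverted repeats of GAA. The heat shock element, taken as 3 alternating GAA and TTC units that are 2 bases apart, was searched on both strands in the window from 250 bases before to 50 after the RefSeq start, which was at hand for 10065 of the tested genes. It stood in 6 of 26 heat shock promoters (23.1%) and in 30 of the 10065 (0.298%). The 2 promoters below, in GRCh38.p14, are shown for the gene with the steepest rise and the gene with the largest gain in TPM. Both give the 150 bases before the start, 5′ to 3′ on the gene's strand, and capitals mark the match.
HSPA6, chr1:161524390-161524539, plus strand: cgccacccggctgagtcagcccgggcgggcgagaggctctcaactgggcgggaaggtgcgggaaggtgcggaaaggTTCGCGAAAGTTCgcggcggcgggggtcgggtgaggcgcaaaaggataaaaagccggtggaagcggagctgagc
HSPA8, chr11:123062137-123062286, minus strand: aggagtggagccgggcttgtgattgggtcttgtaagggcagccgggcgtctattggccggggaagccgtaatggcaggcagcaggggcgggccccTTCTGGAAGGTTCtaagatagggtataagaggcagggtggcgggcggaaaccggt
The match began 74 bases before the HSPA6 start and 55 before the HSPA8 start, and HSPA8 held a further match at 230 bases. Of the 6 list members with the element 4 rose, and of the 20 without it 16 rose.

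Against TRF, 5 of the 29 heat shock members were higher and 0 lower, beside 10.2% and 6.1% of all genes. Against DDP 17 were higher and 0 lower, beside 11.8% and 21.4% of all genes. HSPA6 was at 0.65 ± 0.612 TPM in DDP and 156 ± 34.7 in TRF, with a difference of 0.56 from TRF that was not called (adjusted p = 0.0968) and of 7.18 from DDP. HSP90AA1, the inducible HSP90, rose from 317 ± 13.6 to 1130.0 ± 26.8 TPM against CON and was also higher than in TRF (0.60, adjusted p = 0.00138). Chaperones of the endoplasmic reticulum did not share the rise. Of 30 tested genes of that compartment and its unfolded protein response 1 rose and 6 fell. Against CON 15.6% of all genes rose and 19.5% fell, so the falls were near the general share. HSPA5 (BiP), the main chaperone there, fell from 247 ± 5.5 to 145 ± 2.64 TPM, and EDEM2, of misfolded glycoprotein disposal, from 53.1 ± 0.481 to 19.1 ± 1.99 TPM. Proteasome subunits leaned upward, with 8 of 33 higher and 0 lower, beside the same shares of all genes. They were led by the ubiquitin receptor ADRM1 (308 ± 7 to 810.0 ± 8.98 TPM) and PSMD12 (37.6 ± 1.44 to 87.3 ± 6.64 TPM).

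The ATF4 and amino acid list divided, with 13 of 37 members higher and 10 lower (median 0.35). ASNS (ENSG00000070669), asparagine synthetase, stood at 11.5, 12.3 and 11.6 TPM in the CON libraries and 185, 182 and 180.1 TPM in the TRF+DDP libraries. Its libraries were tight and 15.4 times apart in the means (log2 fold change 3.84 (SE 0.053, adjusted p = 2.42e-13)). PPP1R15A, which restarts translation after eIF2 phosphorylation, rose from 18.6 ± 0.162 to 85.8 ± 10.8 TPM, GDF15, a secreted stress cytokine, from 111 ± 0.725 to 381 ± 11.1 TPM, and ATF3, a stress-induced factor, from 19.2 ± 1.58 to 67.2 ± 9.9 TPM. PSAT1 and SHMT2, of serine and glycine metabolism, were further rises, at 66.6 to 182 TPM and 146 to 279 TPM; both were named after their values were seen. DDIT4 (REDD1), which restrains mTORC1, fell from 689.9 ± 13.6 to 141 ± 5.17 TPM, and ATF4 mRNA itself from 319 ± 3.73 to 180.0 ± 6.03 TPM. VLDLR, a lipoprotein receptor, and SLC7A5, an amino acid transporter, fell to 8.59 ± 0.794 and 54.7 ± 3.32 TPM from 22.2 ± 1.25 and 96.6 ± 1.93.

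The ASNS promoter holds the letters TGATGNAA (TTNCATCA on the other strand) that ATF4 sites carry, found in 5 of 30 promoters of the list (16.7%) and in 146 of 10065 (1.45%). Its 150 bases before the start are shown as those of the largest riser of the list, with the match, 68 bases before the start, in capitals.
ASNS, chr7:97872409-97872558, minus strand: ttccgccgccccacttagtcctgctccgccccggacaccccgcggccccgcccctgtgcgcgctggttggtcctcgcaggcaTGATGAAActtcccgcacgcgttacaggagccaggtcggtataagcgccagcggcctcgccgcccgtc
Of the 5 members with the letters 3 rose and 0 fell, and of the 25 without them 8 rose and 9 fell. ASNS was at 9.83 ± 0.67 TPM in DDP and 168 ± 5.46 in TRF, and its difference from TRF (0.11, adjusted p = 0.0935) was not called. PPP1R15A, ATF3 and GDF15 were each higher in TRF+DDP than in TRF, by 1.68, 1.73 and 3.03 on the log2 scale.

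Most genes that build ribosomes rose. Of 83 ribosome biogenesis factors 57 rose and 2 fell (median 0.80). The groups did not overlap for 78 of the 83, beside 72.6% of all genes tested. NOL6, a nucleolar processing factor, stood at 16.4, 15.9 and 15.2 TPM in CON and 60.2, 61.2 and 57.8 TPM in TRF+DDP, a clear separation (log2 fold change 1.85 (SE 0.05, adjusted p = 2.15e-11)). RRP12, DDX21 and NOP56, of pre-rRNA processing and small nucleolar particles, rose from 21.5 ± 1.31 to 65.3 ± 1.33 TPM, 38.4 ± 1.38 to 111 ± 1.4 TPM and 84.2 ± 4.53 to 230.3 ± 6.95 TPM. NOP53 fell from 365 ± 13.6 to 153 ± 7.23 TPM and UTP18 from 52.2 ± 1.24 to 33.1 ± 0.33 TPM. Polymerases I and III, the makers of ribosomal and transfer RNA, had 11 of 36 members higher and 1 lower, with POLR1G at 5.43 ± 0.276 to 18.6 ± 1.08 TPM. Cytosolic tRNA synthetases had 8 of 20 higher and 2 lower, with SARS1 at 96 ± 3 to 225 ± 6.16 TPM and AARS1 the other way at 129 ± 4.42 to 54.9 ± 1.87 TPM. Translation factors had 12 of 47 higher, led by EIF5 (99.6 ± 4.27 to 278 ± 27.2 TPM), and 4 lower, led by EIF4B (546 ± 4.85 to 193 ± 10.4 TPM). Mitochondrial ribosomal proteins had 17 of 76 higher and 0 lower (median 0.39), with MRPL39 at 19.3 ± 2.87 to 56.1 ± 1.89 TPM.

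The structural proteins of the cytosolic ribosome were the still point of the comparison. Of 79 genes 1 was called higher and 1 lower, the median was 0.06, and the list took 22.5% ± 0.28 of all TPM in CON and 22.9% ± 0.321 in TRF+DDP. RPS26 was at 404 to 608 TPM and RPL3 at 3283 to 2136 TPM. Both calls sat near the fold limit: RPS26 lost its call under quantile normalization (0.59 became 0.51) and RPL3 under TMM-style scaling (-0.62 became -0.58). Against TRF 8 of the 83 biogenesis factors were higher, near the 10.2% of all genes, and 1 was lower, beside 6.1%. Against DDP 57 were higher and 1 lower, beside 11.8% and 21.4% of all genes.

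**Figure D2:**
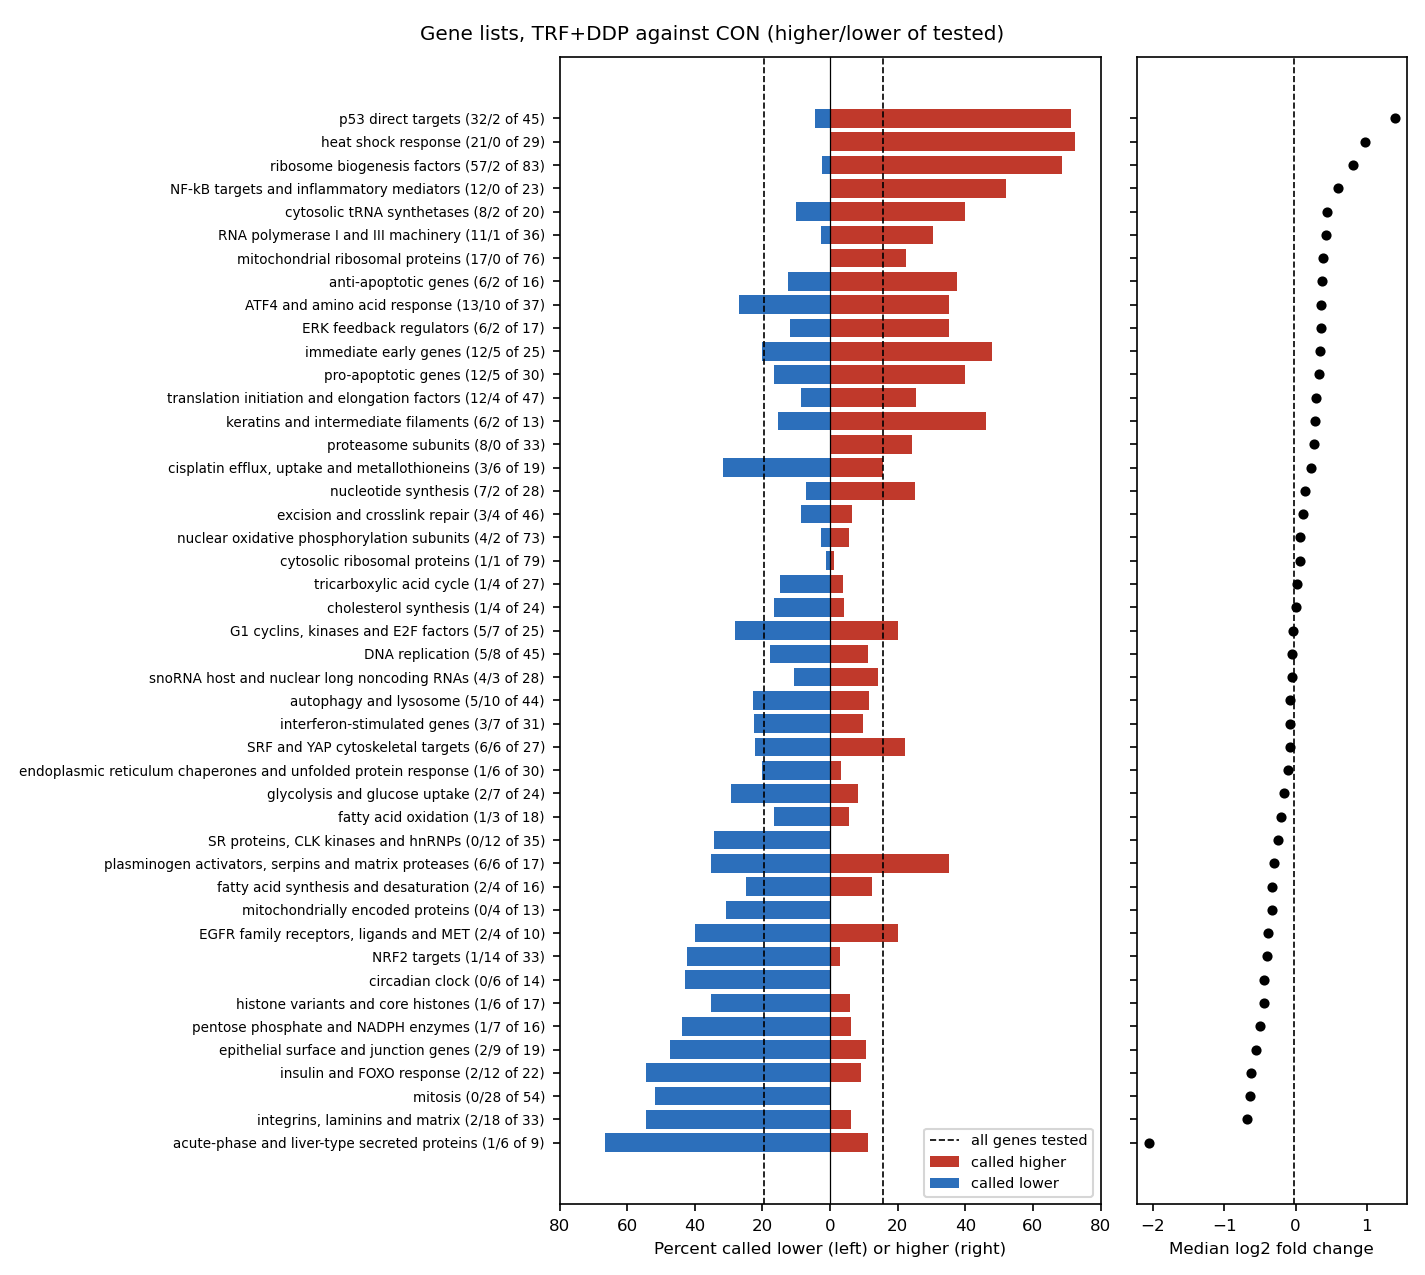
For each of 45 gene lists the left panel gives the percent of tested members called higher (red, right of 0) and lower (blue, left of 0) in TRF+DDP against CON, and the right panel the median log2 fold change, with dashed lines for all 13854 genes (15.6%, 19.5% and -0.03). The lists run from the p53 targets (32 of 45 higher) at the top to the acute-phase and liver-type genes (6 of 9 lower) at the bottom, with the ribosomal proteins near 0 in both panels.

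Early-response genes of growth factor signalling rose more often than they fell. Of 25 tested immediate early genes 12 rose and 5 fell. Over all genes 15.6% rose and 19.5% fell, so the falls were near the general share. EGR1, a zinc finger factor switched on within minutes by ERK, stood at 0.17, 0.41 and 0.25 TPM in the CON libraries and 12.7, 16.1 and 10.9 TPM in the TRF+DDP libraries. Every CON library was under 1 TPM and every TRF+DDP library above 10 (log2 fold change 3.46 (SE 0.16, adjusted p = 2.21e-09)). FOS and FOSB, partners of JUN in AP-1, rose from 3.42 ± 0.546 to 37.1 ± 11.4 TPM and 0.167 ± 0.0751 to 10.2 ± 3.24 TPM, and FOSL1, a slower partner, from 22.3 ± 1.26 to 177 ± 7.8 TPM. NR4A2, an orphan nuclear receptor, fell from 7.8 ± 0.273 to 2.69 ± 0.34 TPM, and JUND from 135 ± 5.89 to 82.5 ± 4.33 TPM. EGR1, FOS and FOSB were also higher than in TRF, by 2.84, 2.88 and 2.49, and higher than in DDP, by 3.31, 3.19 and 3.16. The hour of harvest within the daily cycle is not given in the sources used here. These levels, and those of HBEGF, thus belong to an unknown point of the cycle.

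HBEGF, a ligand of EGFR, stood at 1.25, 1.11 and 1.78 TPM in the CON libraries and 29.6, 33.8 and 27.1 TPM in the TRF+DDP libraries. The lowest TRF+DDP library was over 10 times the highest CON library (log2 fold change 3.71 (SE 0.14, adjusted p = 4.58e-10)). It was at 2.41 ± 0.346 TPM in DDP and 4.68 ± 0.968 in TRF, so that the TRF+DDP level exceeded both (log2 fold change 2.46 against TRF and 3.19 against DDP). TGFA, another EGFR ligand, rose from 4.97 ± 0.527 to 13.3 ± 1.25 TPM, while EGFR itself fell from 29.2 ± 0.335 to 8.27 ± 0.763 TPM and LRIG1, which promotes its degradation, from 9.76 ± 1.19 to 5.59 ± 1.15 TPM. The dual-specificity phosphatases DUSP6 (9.32 ± 0.42 to 20.9 ± 1.95 TPM) and DUSP14 (61.6 ± 3.62 to 139 ± 2.61 TPM) were among 6 of 17 feedback genes that rose, beside 15.6% of all genes. SPRY2 (18.3 ± 1.26 to 8.13 ± 0.405 TPM) was among the 2 that fell, beside 19.5% of all genes.

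NF-kB targets and inflammatory mediators had 12 of 23 members higher and 0 lower (median 0.59), beside 15.6% and 19.5% of all genes. TRAF1, an adaptor of TNF receptors, stood at 1.83, 1.59 and 1.69 TPM in the CON libraries and 48.5, 42.7 and 43.5 TPM in the TRF+DDP libraries, without overlap (log2 fold change 4.08 (SE 0.084, adjusted p = 3.36e-12)). NFKBIE, an inhibitor of NF-kB, rose from 17.9 ± 0.36 to 49.3 ± 3.09 TPM and BIRC3 from 9.29 ± 1.48 to 27.5 ± 1.17 TPM, and CXCL8, a neutrophil chemokine, stayed low, at 0.31 to 3.41 TPM, though called. Interferon-stimulated genes had 3 of 31 higher and 7 lower (22.6%, beside 19.5% of all genes), and 5 higher and 7 lower under quantile normalization. IRF7 and ISG15 rose from 9.9 ± 0.681 to 27.9 ± 0.586 TPM and 41.6 ± 3.14 to 92.1 ± 12.1 TPM, and the membrane proteins IFITM3 and IFITM1, similar copies between which reads can be shared, fell from 272 ± 20.8 to 62.3 ± 9.12 TPM and 79.8 ± 14.2 to 23.6 ± 4.4 TPM. Cytoskeletal targets of SRF and YAP had 6 of 27 higher and 6 lower, beside 15.6% and 19.5% of all genes. CCN2 and CCN1, matricellular YAP targets, rose from 10.9 ± 0.449 to 79 ± 0.225 TPM and 30.8 ± 1.08 to 141 ± 4.19 TPM, and TPM4, an actin-binding tropomyosin, fell from 464 ± 8.08 to 237 ± 6.51 TPM.

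Mitosis genes were lower or not called. Of 54 tested 28 fell and 0 rose (median -0.64), and the list took 0.288% ± 0.00486 of all TPM in CON and 0.195% ± 0.00705 in TRF+DDP. NUSAP1, a spindle protein, stood at 103, 105 and 94.8 TPM in the CON libraries and 32.1, 26.5 and 29.6 TPM in the TRF+DDP libraries, a fall without overlap (log2 fold change -1.75 (SE 0.11, adjusted p = 2.3e-08)). KIF20A, a cytokinesis kinesin, CENPA, the centromeric histone, and PLK1, the main mitotic kinase, fell from 72.2 ± 1.48 to 27 ± 2.87 TPM, 42.7 ± 2.77 to 16.7 ± 1.46 TPM and 78.1 ± 1.18 to 31.4 ± 2.09 TPM. CDK1 and FOXM1, named after their values were seen, were at 48.8 to 47.6 TPM and 36.7 to 36.8 TPM with log2 fold changes of -0.03 and -0.01. Against TRF 16 of the 54 were lower and 0 higher, beside 6.1% and 10.2% of all genes. Against DDP 34 were lower and 0 higher, beside 21.4% and 11.8% of all genes. PLK1 was at 79.9 ± 6.39 TPM in DDP and 95.5 ± 2.99 in TRF and lower in TRF+DDP than in either (-1.58 from TRF and -1.32 from DDP, adjusted p = 5.31e-09 and 2.74e-09). NUSAP1 was at 110.5 ± 11.1 TPM in DDP and 39.9 ± 6.29 in TRF, and its difference from TRF (-0.42) was under the fold limit.

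Many late cell cycle promoters carry a homology region with the letters TTTGAA. These letters (TTCAAA on the other strand) stood in 32 of 45 mitosis promoters (71.1%) and in 908 of 10065 (9.02%). The promoters of PLK1 and CCNB2, a mitotic cyclin that fell from 108 ± 2.86 to 43.9 ± 1.57 TPM, were picked after their values were seen and are shown because the letters begin at the same distance, 29 bases before the start, in both.
PLK1, chr16:23678739-23678888, plus strand: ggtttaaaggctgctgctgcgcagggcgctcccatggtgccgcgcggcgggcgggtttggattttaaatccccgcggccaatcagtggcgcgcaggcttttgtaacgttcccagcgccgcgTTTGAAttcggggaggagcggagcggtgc
CCNB2, chr15:59104996-59105145, plus strand: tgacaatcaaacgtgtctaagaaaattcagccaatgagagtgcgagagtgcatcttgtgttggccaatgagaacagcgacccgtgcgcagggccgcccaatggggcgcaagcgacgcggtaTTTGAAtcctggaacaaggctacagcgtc
In the NUSAP1 promoter the only match began 13 bases after the start, so the distance was not common to all members. Among members with the letters 18 of 32 fell, and among those without them 7 of 13 fell, with medians of -0.69 and -0.70.

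Other cell cycle groups were mixed, beside 15.6% of all genes higher and 19.5% lower. DNA replication genes had 5 of 45 higher and 8 lower. CDC6, which loads the replicative helicase, and PCNA, the sliding clamp, rose from 27.1 ± 1.48 to 63.9 ± 1.25 TPM and 235 ± 13.2 to 490.4 ± 21.2 TPM, while helicase subunits MCM6 and MCM5 fell from 55.8 ± 2.66 to 23.3 ± 1 TPM and 97 ± 1.84 to 49.3 ± 1.54 TPM. Among G1 genes, 5 of 25 higher and 7 lower, the cyclins CCNE1 and CCNE2 rose from 17.9 ± 0.795 to 49.5 ± 1.35 TPM and 2.51 ± 0.667 to 8.88 ± 0.543 TPM, with E2F7, a repressive E2F, at 4.23 ± 0.434 to 13.6 ± 0.46 TPM. RBL2, a pocket protein of resting cells, and CDKN1B (p27) fell from 18.1 ± 0.8 to 5.78 ± 0.264 TPM and 31.2 ± 0.787 to 12.7 ± 1.29 TPM. Excision and crosslink repair genes had 3 of 46 higher and 4 lower. The translesion polymerase POLH rose from 12.3 ± 1.3 to 38.3 ± 1.83 TPM and RAD51C, of homologous recombination, from 28.7 ± 2.11 to 52.8 ± 1.33 TPM, whereas XRCC1, a scaffold of single-strand break repair, fell from 35.3 ± 1.55 to 18.6 ± 0.46 TPM. Nucleotide synthesis had 7 of 28 higher and 2 lower, with the ribonucleotide reductase subunits RRM2B and RRM2 at 17.8 ± 0.63 to 58 ± 3.05 TPM and 111 ± 1.56 to 278 ± 10.7 TPM. Of 17 histone genes 1 rose and 6 fell, H3-3B at 574 ± 21.4 to 1035 ± 40.8 TPM and the linker histone H1-10 at 76.8 ± 4.14 to 26.7 ± 1.64 TPM.

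**Figure D3:**
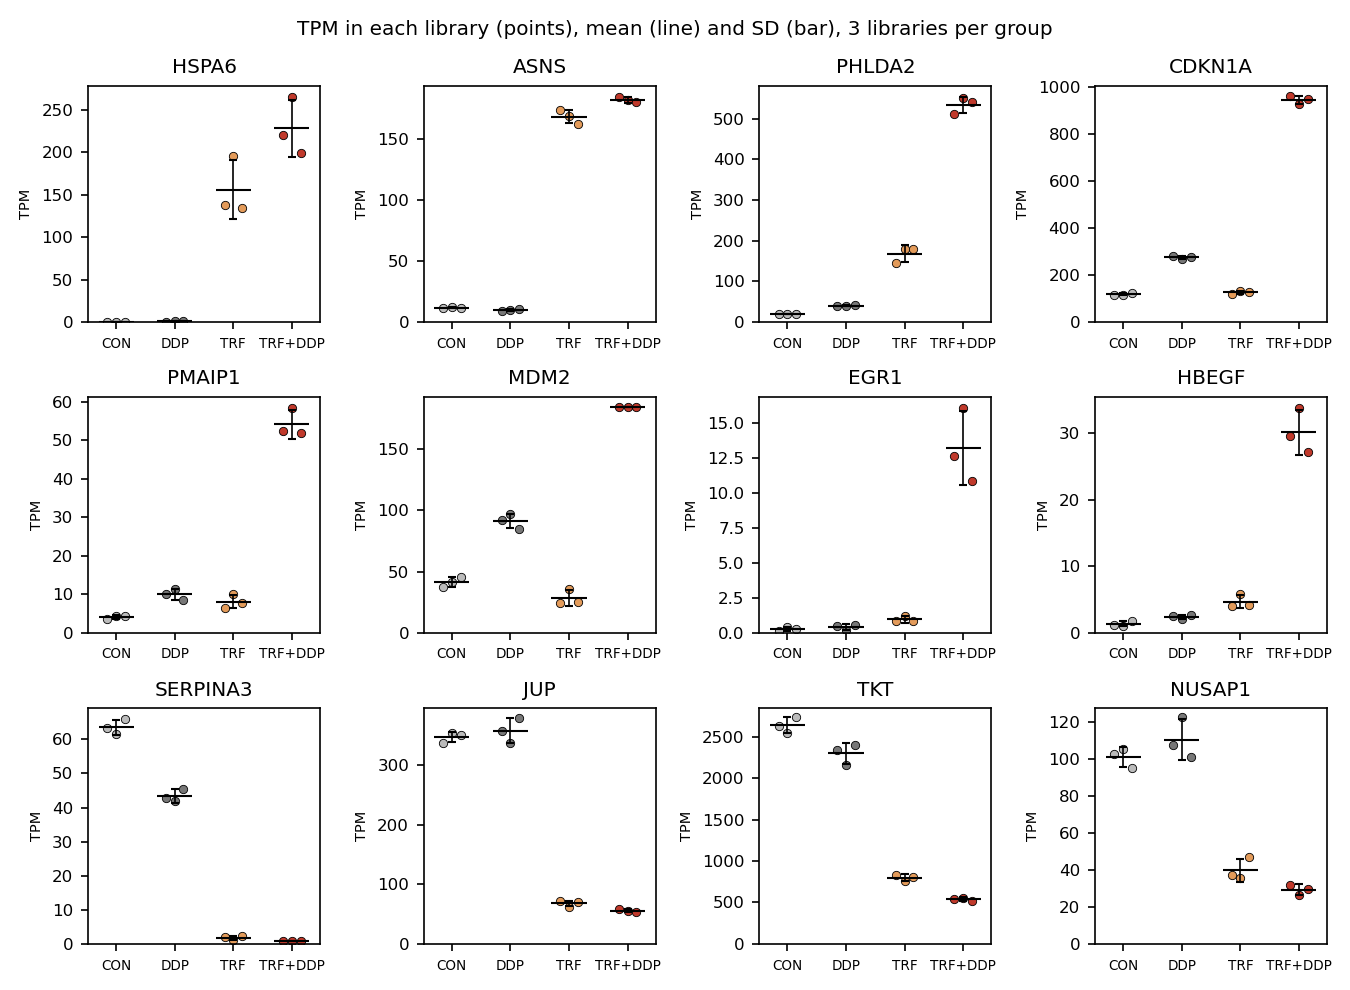
TPM of 12 genes in each of the 12 libraries by group (points), with the mean (line) and SD (bar) of 3 libraries; each panel starts at 0 and has its own scale. CDKN1A, PMAIP1, MDM2, EGR1 and HBEGF were highest in all TRF+DDP libraries, ASNS was at like levels in TRF and TRF+DDP, and SERPINA3, JUP, TKT and NUSAP1 were lower in both than in CON and DDP.

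Epithelial, adhesion and secreted-protein genes fell more often than they rose. Of 33 integrins, laminins and matrix genes 18 fell and 2 rose (median -0.68). COL4A2, a basement membrane collagen chain, fell from 387 ± 13.4 to 81.2 ± 7.63 TPM, COL12A1, a fibril-associated collagen, from 40.3 ± 0.788 to 8.02 ± 0.301 TPM, and FBN1 (fibrillin) from 11.7 ± 1.15 to 1.87 ± 0.225 TPM. The laminin chains parted, LAMA3 falling from 47.2 ± 1.16 to 9.76 ± 0.523 TPM while LAMB3 rose from 29.7 ± 0.307 to 102 ± 1.94 TPM. Of 19 epithelial surface and junction genes 9 fell and 2 rose. JUP (plakoglobin), of desmosomes and adherens junctions and named after its values were seen, stood at 337, 353 and 349.6 TPM in the CON libraries and 58.6, 55.1 and 53.2 TPM in the TRF+DDP libraries, 6.23 times lower in the means (log2 fold change -2.62 (SE 0.059, adjusted p = 5.88e-12)). SUSD2, a surface glycoprotein, stood at 57, 64 and 61.8 TPM in CON and 1.28, 1.8 and 1.54 TPM in TRF+DDP, the next largest fall after SERPINA3 (log2 fold change -4.61 (SE 0.1, adjusted p = 4.89e-12)). ELF3, an epithelial transcription factor, fell from 17.6 ± 1.79 to 0.68 ± 0.403 TPM.

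Only 9 of 35 acute-phase and liver-type secreted genes were expressed enough to test, and 6 of them fell and 1 rose. SERPINA3 (ENSG00000196136), the antichymotrypsin of the acute phase, stood at 63.3, 61.5 and 65.9 TPM in the CON libraries and 0.76, 0.85 and 0.77 TPM in the TRF+DDP libraries. Every TRF+DDP library was under 1 TPM, and the log2 fold change -5.17 (SE 0.12, adjusted p = 6.21e-12) was the largest fall. C3, the central complement component, fell from 191 ± 8.14 to 23 ± 5.39 TPM and AMBP, the precursor of bikunin, from 38.8 ± 1.47 to 1.82 ± 0.568 TPM. LCN2, a siderophore-binding protein of the same list, rose, to 3 ± 0.818 TPM. SERPINA3 was at 43.4 ± 1.92 TPM in DDP and 1.85 ± 0.557 in TRF, and TRF+DDP was lower than both (-0.65 from TRF and -4.63 from DDP). SUSD2 was at 77.5 ± 2.12 TPM in DDP and 1.84 ± 0.349 in TRF, with -0.16 from TRF, not called. Protease genes had 6 of 17 higher and 6 lower: the inhibitor SERPINE2 rose from 6 ± 0.624 to 89.7 ± 2.56 TPM, and the gelatinase MMP2 fell from 99.3 ± 4.11 to 29 ± 1.07 TPM. Keratins and other intermediate filaments had 6 of 13 higher, with KRT15 at 0.257 ± 0.15 to 16.8 ± 1.39 TPM and neurofilament NEFL at 1.86 ± 0.0493 to 21.3 ± 1.42 TPM, and 2 lower, with LMNB1 at 84.9 ± 3.02 to 29.4 ± 1.9 TPM.

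Antioxidant and NADPH genes fell more often than they rose. Of 33 NRF2 targets 14 fell and 1 rose (median -0.41), although the list's share of TPM was nearly flat at 2.84% ± 0.053 of all TPM in CON and 2.78% ± 0.0483 in TRF+DDP, since the ferritin chains FTL (8285 to 10822 TPM) and FTH1 (9879.6 to 9750.2 TPM), which were not called, make up most of it. AKR1C3, an aldo-keto reductase with close copies, fell from 349 ± 8.3 to 45.7 ± 0.54 TPM, ALDH1A1, a retinal dehydrogenase, from 403 ± 29.6 to 102 ± 0.159 TPM, and UGDH, which makes UDP-glucuronate, from 206 ± 5.84 to 67.9 ± 2.18 TPM. AKR1B10 rose from 7.36 ± 0.299 to 24.8 ± 1.26 TPM. Of 16 pentose phosphate and NADPH enzymes 7 fell and 1 rose, and the list took 0.534% ± 0.0124 of all TPM in CON and 0.226% ± 0.00408 in TRF+DDP. TKT, transketolase, stood at 2632, 2549.7 and 2735 TPM in the CON libraries and 547, 556 and 517 TPM in the TRF+DDP libraries, 4.88 times lower in the means (log2 fold change -2.29 (SE 0.05, adjusted p = 5.24e-12)). H6PD and IDH2 fell from 19.6 ± 0.462 to 4.42 ± 0.095 TPM and 181 ± 4.57 to 62.6 ± 4.09 TPM. TKT was at 2299 ± 129 TPM in DDP and 801 ± 38.3 in TRF, and its difference from TRF (-0.57, adjusted p = 2.2e-06) fell just short of the fold limit.

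Of 24 glycolysis and glucose uptake genes 7 fell and 2 rose, beside 19.5% and 15.6% of all genes. LDHA, lactate dehydrogenase, and ENO1, enolase, fell from 1933 ± 57.2 to 819 ± 10.7 TPM and 3779 ± 106 to 2060.0 ± 61.3 TPM. The glucose transporters parted, SLC2A1 rising from 13.6 ± 1.5 to 31.3 ± 6.08 TPM and SLC2A3 falling from 19.4 ± 0.537 to 7.87 ± 0.0702 TPM. ALDOA, named after its values were seen, and GAPDH, glycolytic enzymes at over 1000 TPM, were at 1229 to 1229 TPM and 6444 to 6114 TPM, neither called. In the tricarboxylic acid cycle 1 of 27 rose and 4 fell. PC, pyruvate carboxylase, fell from 33.2 ± 0.987 to 6.7 ± 1.86 TPM and PDK2, which inhibits pyruvate dehydrogenase, from 63.2 ± 4.47 to 20.6 ± 2.14 TPM. IDH3A rose from 20.3 ± 1.01 to 55.5 ± 16.8 TPM, a call lost without CON replicate 1 or 2 or without TRF+DDP replicate 2 (adjusted p = 0.0517, 0.0526 and 0.0707). Fatty acid synthesis had 2 of 16 higher and 4 lower, with FADS2 and SREBF1, a desaturase and the lipogenic factor, at 62.6 ± 1.87 to 18.9 ± 2.17 TPM and 165 ± 9.53 to 51.8 ± 1.16 TPM. Fatty acid oxidation had 1 of 18 higher and 3 lower, and cholesterol synthesis 1 of 24 higher and 4 lower.

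Insulin and FOXO response genes had 12 of 22 members lower and 2 higher (median -0.63). KLHL24, CCNG2, TRIB2 and PIK3IP1, listed as genes that respond to FOXO activity, fell from 11.4 ± 2.13 to 2.7 ± 1.4 TPM, 20.5 ± 1.22 to 6.02 ± 1.13 TPM, 7.31 ± 0.725 to 1.99 ± 0.519 TPM and 11.3 ± 1 to 3.78 ± 0.291 TPM. The 2 members that rose, SESN1 (13 ± 0.754 to 39.8 ± 0.936 TPM) and BBC3 (22.4 ± 0.421 to 48.9 ± 1.42 TPM, which encodes PUMA), are also known p53 targets. Among clock genes 6 of 14 fell and 0 rose. DBP and TEF, output factors of the clock, and NFIL3, which competes with them, fell from 9.73 ± 3.02 to 1.98 ± 0.261 TPM, 4.48 ± 0.247 to 1.48 ± 0.182 TPM and 31 ± 0.909 to 10.7 ± 0.886 TPM, and NPAS2, an activator, from 39.7 ± 4.35 to 19 ± 4.07 TPM. No source used here gives the hour of harvest within the daily cycle, so a shift of phase and a change of level cannot be told apart.

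Splicing and transport genes complete the list of programs. Their counts stand beside 15.6% of all genes higher and 19.5% lower. SR proteins, CLK kinases and hnRNPs had 12 of 35 lower and 0 higher, with HNRNPA1 at 1946 ± 45.9 to 793 ± 29.9 TPM and HNRNPA2B1 at 463 ± 7.92 to 242 ± 6.48 TPM. Autophagy and lysosome genes had 5 of 44 higher, led by the autophagosome protein MAP1LC3B (58.9 ± 1.76 to 150.3 ± 2.5 TPM), and 10 lower, led by its relative GABARAPL1 (91.7 ± 2.47 to 33.9 ± 3.05 TPM). Of 19 genes of cisplatin transport and metallothioneins 3 rose and 6 fell. The efflux pumps ABCC4 and ABCC1 fell from 34.1 ± 1.2 to 7.04 ± 0.323 TPM and 55.1 ± 2.97 to 18.5 ± 1.56 TPM and the copper pumps ATP7A and ATP7B, named after their values were seen, from 2.43 ± 0.221 to 0.907 ± 0.203 TPM and 2.97 ± 0.718 to 1.32 ± 0.277 TPM. ABCG2, another pump, rose from 0.28 ± 0.195 to 1.81 ± 0.25 TPM, and the metallothionein MT2A, which has close copies, from 1524 ± 61.3 to 2878 ± 337 TPM. The copper transporter SLC31A1 (CTR1), also named after its value was seen, was at 13 to 14.9 TPM and not called.

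**Figure D4:**
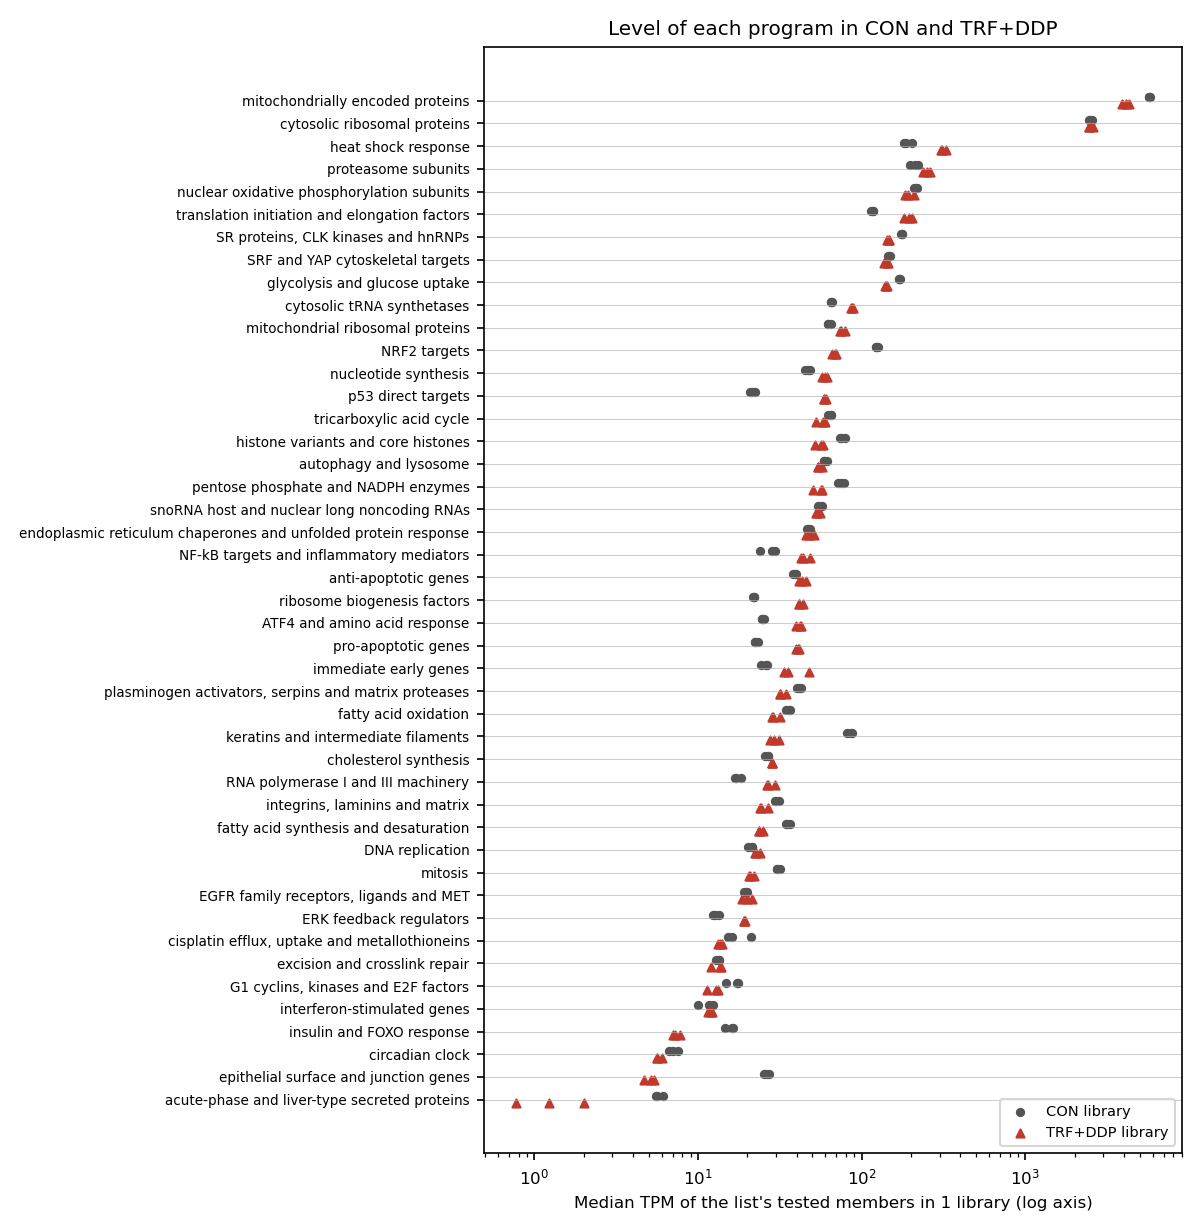
Median TPM of the tested members of each list in each of the 3 CON (circles) and 3 TRF+DDP (triangles) libraries, on a log axis, with lists ordered by their TRF+DDP level. Mitochondrially encoded and ribosomal protein genes stand above 2000 TPM in every library of both groups, and the acute-phase and liver-type genes are lowest, near 6 TPM in CON and 1 TPM in TRF+DDP.

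Ranked by the median TPM of their members, the most expressed programs of the end state were the mitochondrially encoded proteins (5723 ± 66.8 TPM in CON and 4089 ± 183 in TRF+DDP), the cytosolic ribosomal proteins (2509.9 ± 42 TPM in CON and 2495 ± 89.7 in TRF+DDP) and the heat shock genes (190.3 ± 11.3 TPM in CON and 314 ± 12 in TRF+DDP). The first of these lost share, from 10.0% to 7.51% of TPM, with 4 of 13 lower and 0 higher. MT-CYB fell from 3691 ± 138 to 1922 ± 76.2 TPM, MT-ATP6 from 6519 ± 174 to 4057 ± 233 TPM, MT-CO3 from 12632 ± 389.7 to 7362 ± 242 TPM and MT-ATP8, which overlaps MT-ATP6, from 17544 ± 432 to 11020.3 ± 427 TPM. Under quantile normalization MT-CO3 (-0.78 became -0.47) and MT-ATP8 (-0.67 became -0.27) lost their calls. The mitochondrial ribosomal RNA MT-RNR1, which oligo(dT) selection captures poorly, rose from 1349.8 ± 75.9 to 2736 ± 141 TPM. Nuclear genes of oxidative phosphorylation, at 213 ± 5.28 TPM in CON and 194 ± 12.3 in TRF+DDP, had 4 of 73 higher and 2 lower. Both counts were well under the shares of all genes, 15.6% and 19.5%. CYCS, cytochrome c, rose from 24.9 ± 1.99 to 53.1 ± 2.9 TPM and ATP5F1A, an ATP synthase subunit, fell from 337 ± 7.12 to 183 ± 5.29 TPM. The least expressed were the acute-phase genes (5.76 ± 0.315 TPM in CON and 1.34 ± 0.633 in TRF+DDP), the epithelial surface genes (26.1 ± 0.794 TPM in CON and 5.07 ± 0.365 in TRF+DDP), the clock genes (7.08 ± 0.461 TPM in CON and 5.75 ± 0.239 in TRF+DDP) and the insulin and FOXO genes (15.7 ± 0.925 TPM in CON and 7.34 ± 0.355 in TRF+DDP).

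Mitochondrial genes aside, no gene at the top of the list passed the fold limit. Smaller differences were present, as in FTL (log2 fold change 0.39, limma adjusted p = 9.9e-07). The 15 nuclear genes with the highest mean in TRF+DDP ran from FTL at 10822 ± 144 TPM to RPS2 at 4900.4 ± 106 TPM and held 8 ribosomal protein genes among them, and none of the 15 was called; EEF1A1, the elongation factor, came nearest in the falls (8255 to 6806 TPM) and S100A6 nearest in the rises (3608 to 5299.6 TPM, log2 fold change 0.55, called under TMM-style scaling at 0.60). Among the largest gains in TPM of called genes, after HSPA8, were those of MT-RNR1, HSPA1A, MT2A, HSPB1, the small heat shock protein (1463 ± 9.49 to 2803 ± 113 TPM), TUBA1C, an alpha-tubulin (764 ± 31.5 to 1698 ± 29.4 TPM), and CDKN1A. The largest losses among called nuclear genes were TKT, ENO1, TMSB4X, an actin-sequestering thymosin (1948 ± 162 to 767 ± 37.5 TPM), HNRNPA1, RPL3 and LDHA.

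Where groups did not overlap and the higher group averaged 10 TPM or more, the largest rises after HSPA6 were PHLDA2, SNORA11F, TRAF1, ECM1, ASNS, KRT15, HBEGF, SNORA65, SERPINE2, SPHK1, PGF, TMEM40, LINC01629 and EGR1. PHLDA2 (ENSG00000181649), an imprinted pleckstrin homology gene, stood at 20.1, 19.7 and 18.5 TPM in the CON libraries and 513, 550.2 and 541 TPM in the TRF+DDP libraries, 27.5 times apart in the means (log2 fold change 4.71 (SE 0.078, adjusted p = 7.21e-13)). It was at 40.2 ± 2.16 TPM in DDP and 168 ± 20.8 in TRF, and TRF+DDP was higher than each (1.67 from TRF and 3.70 from DDP). SPHK1, sphingosine kinase, rose from 7.67 ± 0.306 to 107 ± 1.81 TPM and PGF, placental growth factor, from 2.48 ± 0.156 to 41.2 ± 1.71 TPM. The small nucleolar RNA SNORA11F was listed at 0 in every CON library (its values were 0, 0 and 0 TPM in CON and 24.1, 24.1 and 14.6 TPM in TRF+DDP), and its call (adjusted p = 0.0394) was lost when any 1 of the 6 libraries was left out (adjusted p from 0.0672 to 0.0886) and when replicate numbers were fitted as a block (adjusted p = 0.0648).

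The largest falls after SERPINA3 and SUSD2 were TPD52L1, AMBP, GGT5, RHOV, SAMD11, CCN5, ELF3, SULT2B1, RAB26, CAMK1D, SLIT3, TMEM37 and LGR4. RHOV, a small GTPase, stood at 125, 115 and 121 TPM in the CON libraries and 8.47, 9.14 and 8.35 TPM in the TRF+DDP libraries, 13.9 times lower in the means (log2 fold change -3.65 (SE 0.059, adjusted p = 7.06e-13)). CAMK1D, a calmodulin-dependent kinase, and SLIT3, a guidance ligand, fell from 25.4 ± 0.982 to 1.52 ± 0.138 TPM and 17.5 ± 1.83 to 1.08 ± 0.19 TPM. Both were at intermediate levels in TRF, 8.93 ± 1.3 and 6.44 ± 1.69 TPM, from which TRF+DDP differed by -1.97 and -1.82. LGR4, a receptor for R-spondins, fell from 18.6 ± 0.381 to 1.39 ± 0.0755 TPM.

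By levels alone, 21 genes with a symbol went from under 1 TPM in every CON library to at least 5 TPM in every TRF+DDP library, and 20 went the other way. The highest of the first kind were HSPA6, SNORA11F, ECM1, KRT15, EGR1, LINC01629, CATSPER1, SNORA65, HIC1 and ALOXE3. HIC1, a repressor known as a p53 target, stood at 0.61, 0.4 and 0.44 TPM in CON and 11.4, 11.9 and 11.6 TPM in TRF+DDP. It was at 1.27 ± 0.272 TPM in DDP and 0.81 ± 0.0954 in TRF, so TRF+DDP stood alone at this level (2.80 from TRF and 2.48 from DDP). ECM1, a secreted matrix protein, went from 0.447 ± 0.15 to 19.9 ± 1.33 TPM, and CATSPER1, a sperm cation channel gene, from 0.447 ± 0.168 to 12.4 ± 1.75 TPM, the latter with -0.13 from TRF (adjusted p = 0.492). The highest of the other kind were SERPINA3, SAMD11, GACAT2, PDGFD, LTBP1, MAML3, STAT4, FHIT, FBXL7 and RTBDN. LTBP1, which stores latent TGF-beta in the matrix, stood at 10.1, 9.69 and 9.35 TPM in CON and 0.4, 0.25 and 0.17 TPM in TRF+DDP. FBXL7, an F-box gene, stood at 7.49, 7.87 and 7.54 TPM in CON and 0.61, 0.7 and 0.63 TPM in TRF+DDP and at 7.54 ± 1.01 TPM in DDP and 5.53 ± 0.111 in TRF, a fall against each group (-1.99 from TRF and -2.37 from DDP). FHIT, a fragile-site gene, varied more, at 12.1, 5.21 and 5.75 TPM in CON and 0.83, 0.22 and 0.18 TPM in TRF+DDP, still without overlap.

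Gene length moved with the direction of change. Protein-coding genes were divided into 5 equal groups by the genomic length that GENCODE v29 (GRCh38) gives. In the shortest group (median 5.95 kb, 2375 genes) 22.9% rose and 14.3% fell, and in the longest (median 158 kb, 2375 genes) 5.39% rose and 39.6% fell, with median log2 fold changes of 0.12 and -0.42. The middle group (median 33.1 kb) held 18.3% higher and 15.3% lower. Among the large falls named above, FHIT, FBXL7, MAML3, LTBP1, SLIT3 and CAMK1D are known as long genes. They are picked examples, and the lengths of the other large falls, SERPINA3 and SUSD2 among them, are not given here. Long noncoding RNAs had 116 of 1010 higher (11.5%) and 240 lower (23.8%).

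**Figure D5:**
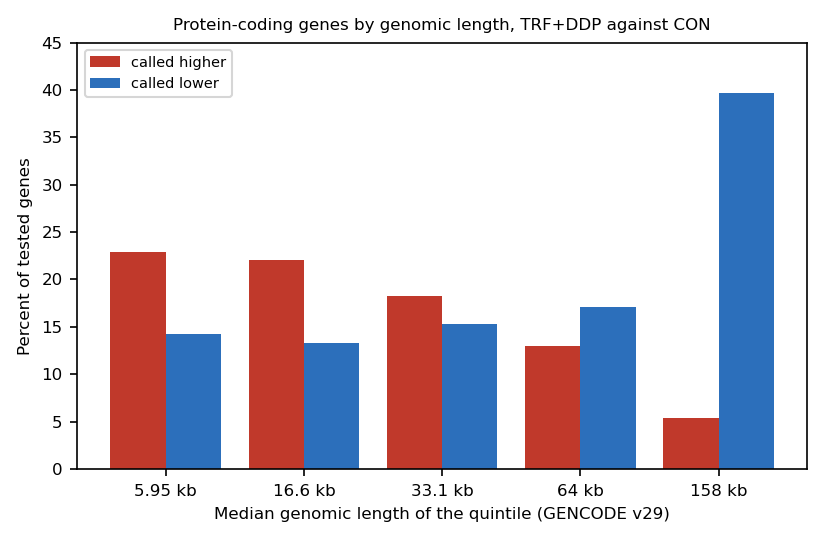
Percent of tested protein-coding genes called higher (red) and lower (blue) in TRF+DDP against CON, in 5 groups of equal size by genomic length, labelled with the median length. The percent lower is 14.3% in the shortest group and 39.6% in the longest, and the percent higher goes from 22.9% to 5.39%.

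Over all genes, TRF+DDP differed from TRF in 2258 genes, 1413 higher and 845 lower, and from DDP in 4599 genes, 1631 higher and 2968 lower. Cell type markers aside, the lists with the largest share of members higher than in TRF were the p53 targets (38 of 45), the immediate early genes (12 of 25), the ERK feedback regulators (6 of 17) and the pro-apoptotic genes (10 of 30), against 10.2% of all genes. Mitosis (16 of 54) and the integrins, laminins and matrix genes (8 of 33) had the largest share lower than in TRF, against 6.1%. Called in neither direction against TRF were all 79 ribosomal proteins, 73 nuclear oxidative phosphorylation genes, 13 mitochondrially encoded proteins and 24 glycolysis and glucose uptake genes. The comparisons of TRF and of DDP with CON share the CON libraries with TRF+DDP against CON, so their values are given side by side: the median log2 fold change of the p53 targets was -0.41 in TRF, 0.65 in DDP and 1.39 in TRF+DDP, that of the heat shock genes 0.82, 0.12 and 0.98, and that of the mitosis genes -0.17, 0.12 and -0.64.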

How the data were processed

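RNA was sequenced from 12 samples of A549/DDP cells in 4 labelled groups of 3, CON, DDP, TRF and TRF+DDP. The extraction methods name A549 cells and the labels A549/DDP. Oligo(dT)-selected reads were trimmed with SeqPrep and sickle, aligned with HISAT2 and assembled with StringTie by the authors, who deposited TPM per library and as group means (not used here). Neither versions nor a genome build nor the use of strand was stated in the sources used here. The table holds 60902 genes, 238 of them assembled loci. TPM keeps no depth, so the number of reads per library is unknown and precision rests on 3 libraries per group. The authors called genes with DESeq2 on values not analysed here.

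TPM was tested as log2(TPM + 1), for genes averaging 1 TPM or more in the 12 libraries, in 1 fit of the 4 groups with limma 3.58.1 (R 4.3.3; trend, robust) and Benjamini-Hochberg adjustment over all 13854 genes. Calls needed a fold over 1.5 at an adjusted p under 0.05. The step was tested on simulated data. Python 3.11.15, numpy 2.4.6, pandas 2.3.3 and matplotlib 3.10.9 were used for the rest. Promoters are RefSeq's (GRCh38.p14), and lengths GENCODE v29's. The 49 gene lists (1564 genes, all matched) and the members were chosen with earlier results of these data known. Genes were named by rule: the 15 largest rises and falls, the 15 highest nuclear genes, the 10 largest gains and losses in TPM, up to 10 genes at under 1 TPM in every library of either CON or TRF+DDP and at least 5 TPM in the other, up to 4 called members per list and direction, genes the study measured by RT-qPCR, and cell type markers. As alternatives, TPM was scaled in the manner of TMM (trims of 0.3 and 0.05) or by quantiles, the filter was dropped or set to 1 TPM in each library compared, and fits were made with a pseudocount of 0.1, limma without trend, only the 2 groups, a replicate block, no fold threshold, a test against a fold of 1.5, and each library left out. Some genes that these rules name are not reported here.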

Additional observations from a re-analysis of the deposited data

How the results depend on the processing

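The count of genes called in TRF+DDP against CON (4866) stayed within 1.5 times under every alternative but a change of the call rule. Without the fold threshold it was 9314 (4426 higher and 4888 lower), and tested against a fold of 1.5 it was 2760 (1212 and 1548). Against TRF the counts were then 6639 and 691 in place of 2258, and against DDP 9056 and 2448 in place of 4599. Leaving out 1 library gave 4832 to 4926 calls, 2076 to 2189 of them higher and 2671 to 2784 lower, with 2159 to 2459 against TRF and 4535 to 4626 against DDP. The share of calls that were higher was 44.3%, and 48.5% and 47.9% under quantile normalization and TMM-style scaling, and no called gene was called in the opposite direction in any of the alternatives. Of 319 named genes tested, 300 were called. In every alternative that kept the call rule, 298 of the 319 kept their direction and their side of the limits. Of 4433 gene values in those alternatives, 48 lost a call and 1 gained it. The changes of the call rule are not part of these counts of named genes. Of 517 list medians, 109 moved by more than 1 SD and 13 changed sign, in lists with medians near 0 or, without a filter, among the fibroblast and lung markers; the cause was not tested.

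With the replicate number as a block the counts were 4864 (2156 higher and 2708 lower), 2266 against TRF and 4590 against DDP. The numbers gave no sign of pairing: the correlation of same-numbered CON and TRF+DDP libraries' deviations from their group means was -0.08, 0.02 and -0.07. With 3 libraries per group such correlations cannot settle whether the samples were paired. With TPM alone, the reads behind a low value cannot be known.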

Other observations

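Further gene families, picked by symbol after results of these data were known, were counted in TRF+DDP against CON beside 15.6% higher and 19.5% lower for all genes. Of 21 tubulin genes 8 rose and 0 fell, and of 39 DNAJ co-chaperones 9 rose and 2 fell. Kinesins went the other way, with 12 of 32 lower and 3 higher. Of 127 LINC noncoding RNAs 35 fell and 11 rose, and of 346 zinc finger ZNF genes 44 fell and 54 rose. Among 28 snoRNA host and nuclear long noncoding RNAs 4 rose and 3 fell. SNHG15, a snoRNA host, rose from 12.3 to 57.6 TPM and MEG3, an imprinted RNA, from 9.91 to 26.2 TPM, while NEAT1, the scaffold of paraspeckles, was at 38.0 TPM in CON and 22.1 TPM in TRF+DDP (limma adjusted p = 0.026, and 0.0569 to 0.0727 without CON replicate 2 or 3 or TRF+DDP replicate 2 or 3). Of 174 assembled loci without an Ensembl identifier 27 rose and 26 fell.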
